A study of Mus musculus with 2 samples.

Results

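The miR-34 and miR-449 family comprises 6 microRNA genes of the mouse, Mir34a, Mir34b, Mir34c, Mir449a, Mir449b and Mir449c. They were taken by symbol from the 2202 microRNA genes of the deposited count tables. The libraries came from heart tissue of female B6CASTF1/J mice, the first-generation hybrid of C57BL/6J and CAST/EiJ, aged 18 to 20 months. There was 1 group of 2 libraries, numbered as biological replicates 2 and 1, whose tissue records differ while the donor record is the same, so separate animals are not established. No treatment, mutation or younger group belongs to this group, and nothing below measures an effect of age. Each comparison sets replicate 2 against replicate 1, that is, 1 library against another.

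MicroRNAs are processed from hairpin precursors into short RNAs that pair with messenger RNAs, mainly through a seed of 7 bases near the 5′ end. Mir34a is a direct target of the tumour suppressor p53, is widely expressed, and is known to rise with age in the mouse heart, where it represses Ppp1r10, a phosphatase subunit involved in DNA repair and telomere maintenance. Mir34b and Mir34c come from 1 shared primary transcript, and the Mir449 genes lie inside Cdc20b. Both of these clusters are known for their high expression in multiciliated epithelium and in male germ cells, and in the mouse they act redundantly in the formation of motile cilia, with Ccp110, a centriole protein, among their targets. The data show how much of each gene this aged heart tissue yielded, and how far the libraries differed in it.

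The seed is what makes these genes a family, so 5′ arm products are shown first, with bases 2 to 8 in capitals (RefSeq, GRCm38.p6; all sequences 5′ to 3′).
miR-34a-5p: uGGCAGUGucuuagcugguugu
miR-449a-5p: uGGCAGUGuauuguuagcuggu
miR-449c-5p: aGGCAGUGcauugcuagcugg
miR-34b-5p: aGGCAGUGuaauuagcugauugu

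All 4 sequences share the seed GGCAGUG. Of the 1738 mature sequences in the RefSeq table, 4 had this seed, and all 4 were these family products. The table held no miR-34c-5p and no Mir449b product, so these 4 need not be the full set. The same 7 letters occurred somewhere in 17 of the 1005 RefSeq hairpins, among them all 5 family hairpins in the table. Outside the seed the sequences differ in part. Without gaps from base 1, miR-449a-5p matched miR-449c-5p at 18 of 21 positions and miR-34a-5p at 15 of 22. On the same count miR-34b-5p matched miR-34a-5p at 11 of 22. However, miR-34b-5p has 23 bases and miR-34a-5p 22, and later letters of both line up when miR-34b-5p is shifted by 1 base. The ungapped count therefore understates the likeness of this pair. The 3′ arms do not share 1 seed. Those of Mir34b and Mir34c are shown because they have a second seed in common, again in capitals.
miR-34b-3p: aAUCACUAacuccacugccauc
miR-34c-3p: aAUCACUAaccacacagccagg

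These 3′ products matched at 17 of 22 positions and had the seed AUCACUA, whereas miR-34a-3p, miR-449a-3p and miR-449c-3p each had another. The products miR-34c-5p, miR-449b-5p and miR-449b-3p are named without sequence. In the comparison of all 2202 hairpins of GENCODE M21, on either strand, the longest stretch that 2 family hairpins shared was 11 nt, and the longest that 1 shared with any other annotated microRNA hairpin was 14 nt (Mir449a with Mir679). None reached the 20 nt at which a read of mature length could fit either locus exactly. Fits that allow a mismatch were not examined, and miR-34c-5p could not be compared with miR-34b-5p as a mature sequence. Exact copies of the 9 mature sequences were found in GENCODE M21 transcripts of their own gene and of no other gene, on either strand. The rest of the genome was not searched. A gene count adds both arms of a hairpin, so the arms cannot be separated.

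In mm10, Mir34a (ENSMUSG00000065493.1) lies on chromosome 4, positions 150068454 to 150068555, plus strand. Its last 17 bases overlap an exon of Gm37795, an unclassified transcript model on the same strand. Mir34b (ENSMUSG00000065492.1) and Mir34c (ENSMUSG00000065587.1) lie on the minus strand of chromosome 9, at 51103562 to 51103645 and 51103034 to 51103110, with 451 bases between them. Both lie opposite an intron of Btg4. On the plus strand of chromosome 13, Mir449c (113035983 to 113036091), Mir449b (113037419 to 113037498) and Mir449a (113037534 to 113037624) lie in this order in introns of Cdc20b, a relative of the cell cycle regulator Cdc20. Mir449c begins 872 bases after the start of Cdc20b, and 35 bases part Mir449b from Mir449a.

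**Figure D1:**
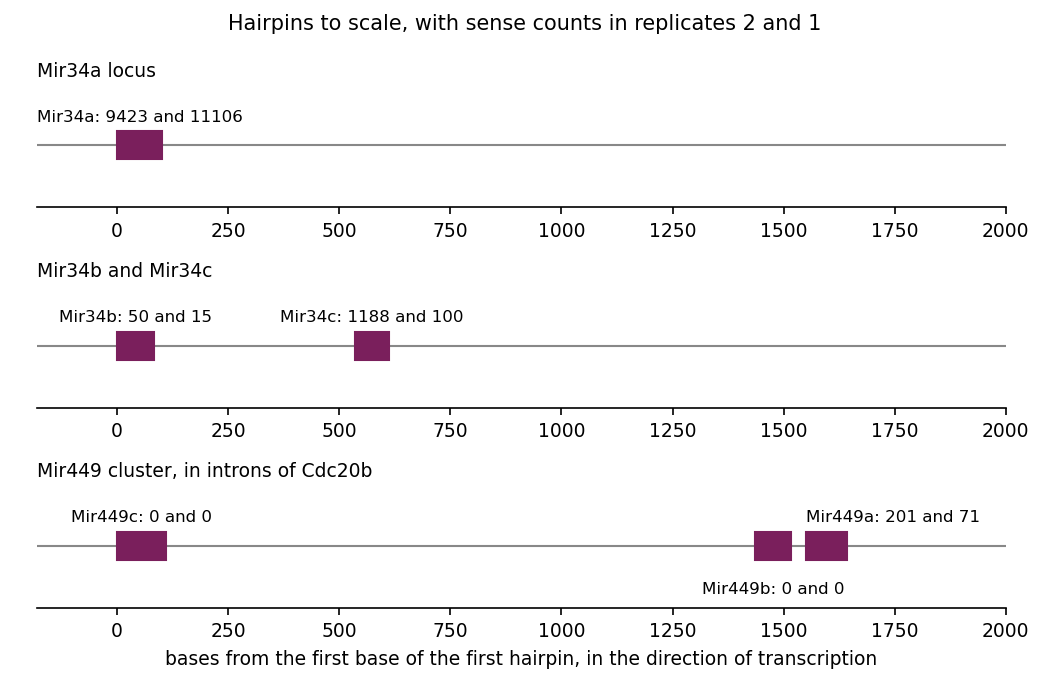
Family hairpins (boxes) to scale at their 3 loci; the x axis is the distance in bases from the first base of the first hairpin, in the direction of transcription, and each label gives sense counts in replicate 2 and then replicate 1. Mir34c had 1188 and 100 counts beside 50 and 15 for Mir34b, and Mir449a had 201 and 71 counts beside 0 in both libraries for Mir449b and Mir449c.

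The libraries held 3676084 sense counts on microRNA genes in replicate 2 and 3383676 in replicate 1, and levels below are counts per 1000000 of these totals (CPM). They are not divided by length, since a read spans a whole mature microRNA. Reads that mapped to several places, 43.2% of reads in replicate 2 and 43.9% in replicate 1, entered no gene count. A count of 0 allows up to 3 counts, or 0.816 CPM in replicate 2 and 0.887 CPM in replicate 1. All intervals cover counting error only, and they treat reads as independent. Reads without molecular identifiers are not independent molecules, so the intervals may be too narrow and p-values on counts too small. SDs over n = 2 libraries may be partly technical. Of the 7 markers of heart muscle, 2 intronic microRNAs of myosin genes were high, with 3567 and 3977 CPM for Mir499 and 1247 and 1588 CPM for Mir208a in replicates 2 and 1. The other 5 (Mir208b, also from a myosin gene, and the Mir1a and Mir133a genes) lay between 1.48 and 82.2 CPM. Mir1a and Mir133a are each listed as 2 genes, and reads that fit both genes of a pair entered neither count. The counts of these pairs may therefore miss reads, which was not tested. In bulk tissue, fewer cells of a type and less RNA per cell cannot be told apart. Reads were counted on mm10, and whether CAST/EiJ variants lower a family gene's count was not tested.

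The aged heart tissue yielded the family almost wholly as Mir34a. Mir34a had 9423 counts, or 2563 CPM (exact Poisson 95% interval 2512 to 2616), in replicate 2. It had 11106 counts, or 3282 CPM (3222 to 3344), in replicate 1, for a mean of 2923 ± 508 CPM (SD, n = 2). Both libraries thus gave abundant counts. Of the 2202 genes, 708 had a count in either library, and Mir34a ranked 39 in replicate 2 and 33 in replicate 1. Its neighbours by mean level were Mir320, at 3038 ± 256 CPM, and Mir21a, a microRNA known from fibroblasts and fibrosis, at 2879 ± 1241 CPM. Neither mean differed from that of Mir34a beyond these SDs. Within libraries, Mir320 and Mir21a stood above Mir34a in replicate 2 (3219 and 3756 CPM) and below it in replicate 1 (2856 and 2002 CPM). Mir34a stood well above Mir208a, an intronic microRNA of the adult cardiac myosin gene Myh6, which averaged 1418 ± 241 CPM.

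Mir34c came next and was the least even member. It had 1188 counts, or 323 CPM (305 to 342), in replicate 2 and 100 counts, or 29.6 CPM (24.05 to 35.9), in replicate 1. Replicate 2 was high, replicate 1 was low, and the mean of 176 ± 208 CPM describes neither library. Mir34c ranked 94 of 2202 in replicate 2 and 190 in replicate 1. Beside it by mean level stood Mir128-1, at 179 ± 13.3 CPM, and the epithelial gene Mir200c, at 172 ± 128 CPM. Mir34b, from the same primary transcript, had far fewer counts, with 50 counts, or 13.6 CPM (10.1 to 17.9), in replicate 2 and 15 counts, or 4.43 CPM (2.48 to 7.31), in replicate 1. It averaged 9.02 ± 6.48 CPM, between Mir1943 (9.05 ± 4.34 CPM) and Mir376c (8.96 ± 8.49 CPM).

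Of the Mir449 cluster, Mir449a was counted and its neighbours were not. Mir449a had 201 counts, or 54.7 CPM (47.4 to 62.8), in replicate 2 and 71 counts, or 20.98 CPM (16.4 to 26.5), in replicate 1. Its mean of 37.8 ± 23.8 CPM lay between those of Mir378c (38.0 ± 3.58 CPM) and Mir6236 (37.2 ± 7.44 CPM). Mir449b and Mir449c had 0 counts in both libraries, as was the case for 1494 of the 2202 genes. Against the limit of 3 counts per library, Mir449a was 67.0-fold higher than Mir449b and than Mir449c in replicate 2. In replicate 1 it was 23.7-fold higher than each. All of them lie in the same host gene. These folds leave out the counting error of Mir449a and would be lower against the exact Poisson upper limit. On the antisense strand, the family had 1 count in all, for Mir34b in replicate 1.

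The order by mean was thus Mir34a, Mir34c, Mir449a and Mir34b, followed by both genes at 0, and this order was the same in both libraries. The values of Mir34a did not overlap those of Mir34c, nor those of Mir449a those of Mir34b. Mir34c and Mir449a did overlap over the libraries, and their means differed by less than the SD of Mir34c, so that pair does not differ beyond the spread. Within each library Mir34c was nevertheless the higher, at 5.91 times Mir449a (exact 95% interval 5.09 to 6.90) in replicate 2 and 1.41 times (1.03 to 1.94) in replicate 1.

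**Figure D2:**
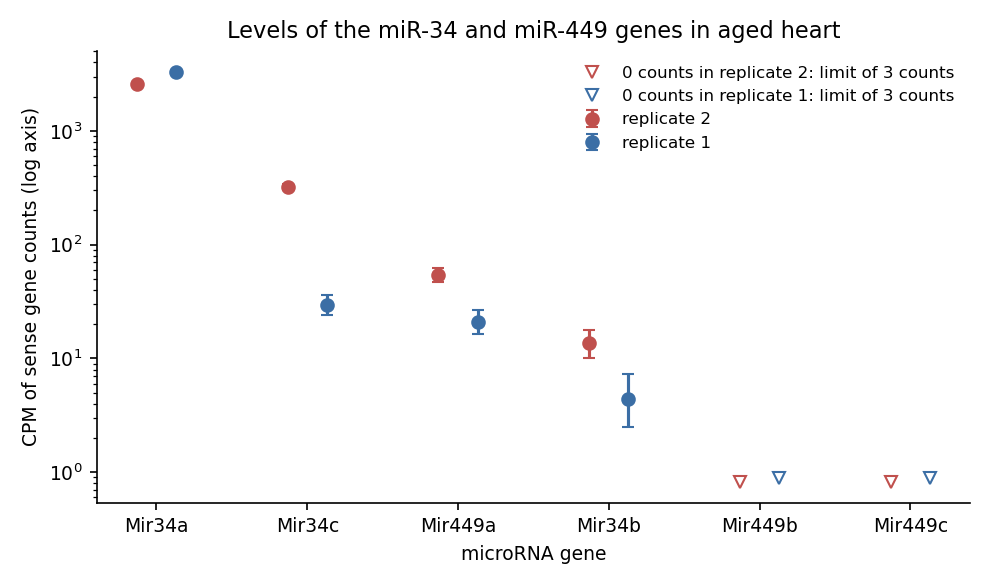
Level of each family gene in CPM (log axis) in replicate 2 (red) and replicate 1 (blue), with exact Poisson 95% intervals; open triangles mark the limit that 3 counts set for genes at 0. Mir34a lies at 2563 and 3282 CPM, Mir34c spans 323 to 29.6 CPM, and Mir449b and Mir449c are at 0.

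The family took 0.295% of sense counts (Wilson 95% interval 0.290 to 0.301) in replicate 2 and 0.334% (0.328 to 0.340) in replicate 1, so its total differed little between the libraries. Its make-up differed more. Mir34a gave 86.8% (86.1 to 87.4) of family counts in replicate 2 and 98.4% (98.1 to 98.6) in replicate 1. The other 5 genes together gave 13.2% (12.6 to 13.9) in replicate 2, or 391 CPM, and 1.65% (1.43 to 1.90), or 55.0 CPM, in replicate 1. Mir34c alone gave 10.9% (10.4 to 11.5) and 0.886% (0.729 to 1.08) of family counts in replicates 2 and 1.

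**Figure D3:**
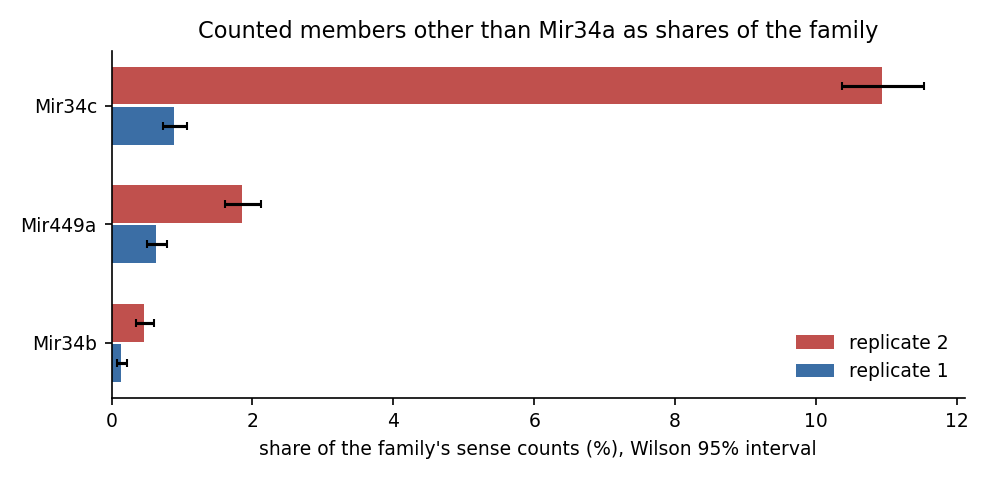
Share of the family's sense counts held by each counted gene other than Mir34a, in percent, in replicate 2 (red) and replicate 1 (blue), with Wilson 95% intervals as error bars. Mir34c makes up 10.9% in replicate 2 and 0.886% in replicate 1, and all 3 genes hold larger shares in replicate 2.

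Ratios between the genes followed this split. Mir34a was 7.93 times Mir34c (7.47 to 8.43) in replicate 2 and 111 times (91.2 to 137) in replicate 1. It was 46.9 times the Mir449 genes together (40.8 to 54.2) in replicate 2 and 156 times (124 to 200) in replicate 1. Genes of 1 transcript did not keep 1 ratio: Mir34c was 23.8 times Mir34b (17.9 to 32.2) in replicate 2 and 6.67 times (3.85 to 12.4) in replicate 1, with intervals that do not overlap. The lower of these rests on 15 counts of Mir34b. Whether reads of Mir34b and Mir34c were assigned to each other with a mismatch was not tested. Mir449a and Mir34b, from different chromosomes, kept a closer ratio, at 4.02 (2.94 to 5.60) in replicate 2 and 4.73 (2.69 to 8.90) in replicate 1, with intervals that overlap.

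The library difference was then set against counting noise for every gene with 10 counts or more in each library, by a two-sided exact binomial test on counts scaled by TMM, a method that sets most genes level. This compares these libraries, not conditions, and calls are frequent: 191 of 316 genes, or 60.4%, passed an adjusted p of 0.05, with 33.2% higher in replicate 2 and 27.2% higher in replicate 1. Of the 6 family genes, 4 could be tested and all 4 were called, 3 higher in replicate 2 and 1 higher in replicate 1. With 60.4% of all tested genes called, the calls themselves say little about the family, and the sizes say more. Called and also more than 2-fold higher in replicate 2 were 10.1% of tested genes, and Mir34c, Mir34b and Mir449a were among them.

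Mir34c was 10.04 times as high in replicate 2 as in replicate 1 (exact 95% interval 8.18 to 12.4), a log2 ratio of 3.33 (exact binomial test with Benjamini-Hochberg adjustment, adjusted p = 4.70e-198). Of the 316 genes, Mir26a-1 alone had a higher ratio, on 181 and 14 counts in replicates 2 and 1. Genes under 10 counts in either library had no place in this ranking, among them Mir205 with 106 and 5 counts. Mir34b was 2.82 times as high (1.56 to 5.40), a log2 ratio of 1.49 (exact binomial test, adjusted p = 0.000522). Mir449a was 2.39 times as high (1.82 to 3.18), a log2 ratio of 1.26 (exact binomial test, adjusted p = 8.39e-11). In the order of ratios from the highest, Mir34c ranked 2, Mir34b 19 and Mir449a 24 of 316. Mir34a went the other way, at 0.717 times (0.697 to 0.737), a log2 ratio of -0.48 (exact binomial test, adjusted p = 1.58e-124). That difference is small: 148 of the 316 genes differed more in either direction, and the SD of the log2 ratio over the 316 genes was 0.955.

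**Figure D4:**
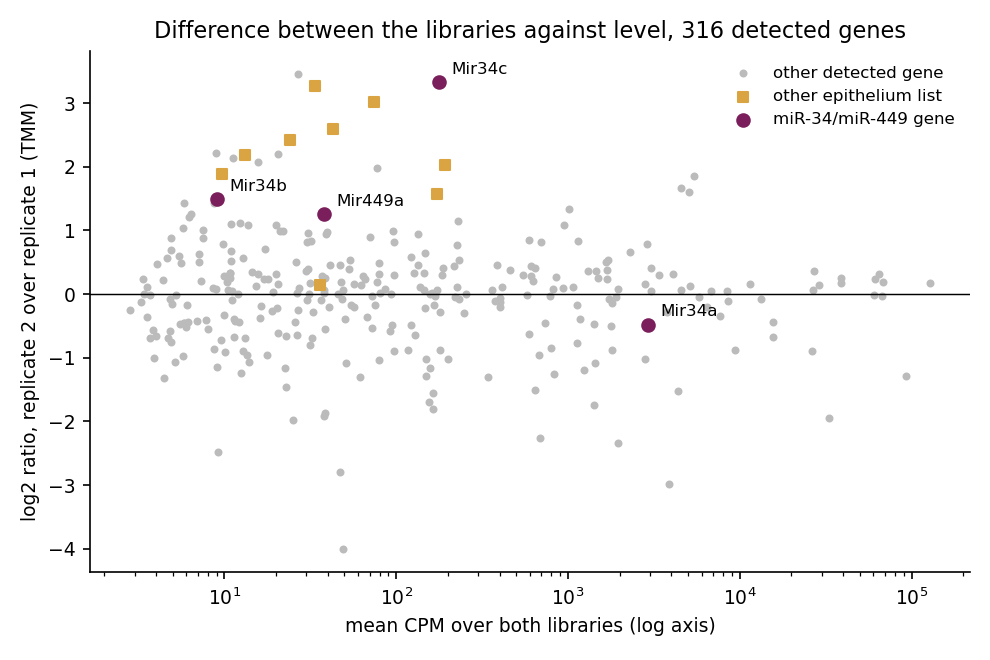
Log2 ratio of replicate 2 over replicate 1 on TMM-scaled counts against mean CPM (log axis) for the 316 detected genes (grey), with family genes in purple and genes of the other epithelium list as yellow squares. Mir34c (3.33) lies near the top among genes of its level and above every detected gene of the other epithelium list, and Mir34a (-0.48) lies below 0. Mir205 of that list, with 106 counts in replicate 2 and 5 in replicate 1, was not tested and is not shown.

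With 2 libraries, the pattern of a gene is its ratio, so likeness was taken as the distance between log2 ratios over the 200 genes that averaged at least 100 counts. The genes nearest to Mir34c (3.33) were Mir182 (3.26), Mir375 (3.01), Mir183 (2.60), Mir203 (2.03) and Mir708 (1.97), of which the first 4 are epithelial or endocrine microRNAs. Mir34c had the highest ratio of the 200 genes, so these are the next highest ratios, and Mir203 and Mir708 lay 1.29 and 1.35 away. Mir26a-1 (3.45), on 181 and 14 counts in replicates 2 and 1, averaged fewer than 100 counts and was not searched. The genes nearest to Mir34a (-0.48) were Mir374b (-0.48), Mir196b (-0.49), Mir208a (-0.47), Mir328 (-0.51) and Mir484 (-0.45). The other microRNAs of cardiac myosin genes did not lie as close to Mir34a as Mir208a did, with log2 ratios of -0.28 for Mir499 and -1.91 for Mir208b.

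Markers of other epithelium mostly moved with the cluster genes. The multiciliated list is the family without Mir34a, so its values repeat those of the cluster genes and are no separate marker. It summed to 391 CPM in replicate 2 and 55.0 CPM in replicate 1. Its detected genes, 3 of 5, were all called higher in replicate 2, as were 33.2% of all 316 tested genes. Their median log2 ratio was 1.49, against 0.05 over all 316 genes, and Mir449b and Mir449c were at 0. The other epithelium list of 11 genes summed to 994 CPM in replicate 2 and 233 CPM in replicate 1. Of its 9 tested genes, 8 were called higher in replicate 2, against the same 33.2% over all genes (median log2 ratio 2.19). Among them, Mir203, a microRNA of stratified epithelium, had 315 CPM in replicate 2 and 70.6 in replicate 1, and Mir200c had 263 and 81.3. Mir375, known from endocrine and airway cells, had 133 CPM in replicate 2 and 15.1 in replicate 1, and Mir183, known from sensory epithelia, had 74.0 and 11.2. The exception was Mir200b, with 39.2 and 32.5 CPM (log2 ratio 0.15; exact binomial test, adjusted p = 0.533). Of the untested pair, Mir205 had 106 counts in replicate 2 and 5 in replicate 1, and Mir96 had 2 and 0. The part of epithelial cells in the levels of Mir34b, Mir34c and Mir449a was not tested.

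Markers of other cell types moved too. Over all 316 tested genes, 33.2% were called higher in replicate 2 and 27.2% higher in replicate 1. All 4 white blood cell genes (14264 CPM in replicate 2 and 7315 in replicate 1 in sum; median log2 ratio 1.12) and both smooth muscle genes (50822 and 35639 CPM; 0.96) were called higher in replicate 2, except that Mir155 (log2 ratio 0.07) was not called with DESeq2 size factors or at a minimum of 100 counts. Called higher in replicate 1 were all 4 tested heart muscle genes of 7 (4902 CPM in replicate 2 and 5722 in replicate 1; -0.50), all 3 erythroid genes (1938 and 4182 CPM; -1.20) and the endothelial gene Mir126a (57714 and 129043 CPM; -1.28). With reads on either strand, a column that leaves out reads it files as ambiguous, Mir126a was not called (-0.25), and Mir451a, Mir486, Mir142 and Mir1a-2 had too few counts to be tested. In the main comparison, the heart muscle genes left untested were Mir133a-2 (9 and 27 counts in replicates 2 and 1), Mir1a-1 (8 and 20) and Mir133a-1 (17 and 5). Of them, Mir133a-1 alone had more counts in replicate 2. None of the genes on these lists was at 0 in both libraries. Their part in the ratios of the family was not tested.

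Mir34a was also read beside other microRNAs of its pathways. Of 14 microRNAs known to respond to p53, 13 were matched by symbol and tested, the 3 Mir34 genes among them. In this list 6 genes were called higher in replicate 2 and 7 higher in replicate 1, against 33.2% and 27.2% of all tested genes. The median log2 ratio was -0.48, which is Mir34a's own and turns to 0.51 over the 8 genes left at a minimum of 100 counts. Mir143 (43744 and 33589 CPM in replicates 2 and 1) and Mir145a (7078 and 2050 CPM), a smooth muscle pair, were higher in replicate 2, and Mir15a (697 and 2145 CPM), which represses cell cycle and Bcl2 messages, was higher in replicate 1. Genes on the p53 list therefore went both ways, as the Mir34 genes did. Of 10 microRNAs tied to cardiac ageing and senescence, 9 were matched by symbol and 6 of these tested, with 2 called higher in replicate 2 and 4 higher in replicate 1 (median -0.69). The gene not matched was Mir18a, which the annotation names Mir18. These counts and the median leave it out, although Mir18 was tested and called higher in replicate 1 (log2 ratio -0.36). Mir22, tied to hypertrophy and senescence, had 14527 CPM in replicate 2 and 51384 in replicate 1, Mir29a, which represses collagen messages, had 19297 and 33041, and Mir195a had 940 and 6824. By mean level these 3 stood above Mir34a, although Mir195a lay below it in replicate 2, and Mir34a differed between the libraries by less than any of them.

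**Figure D5:**
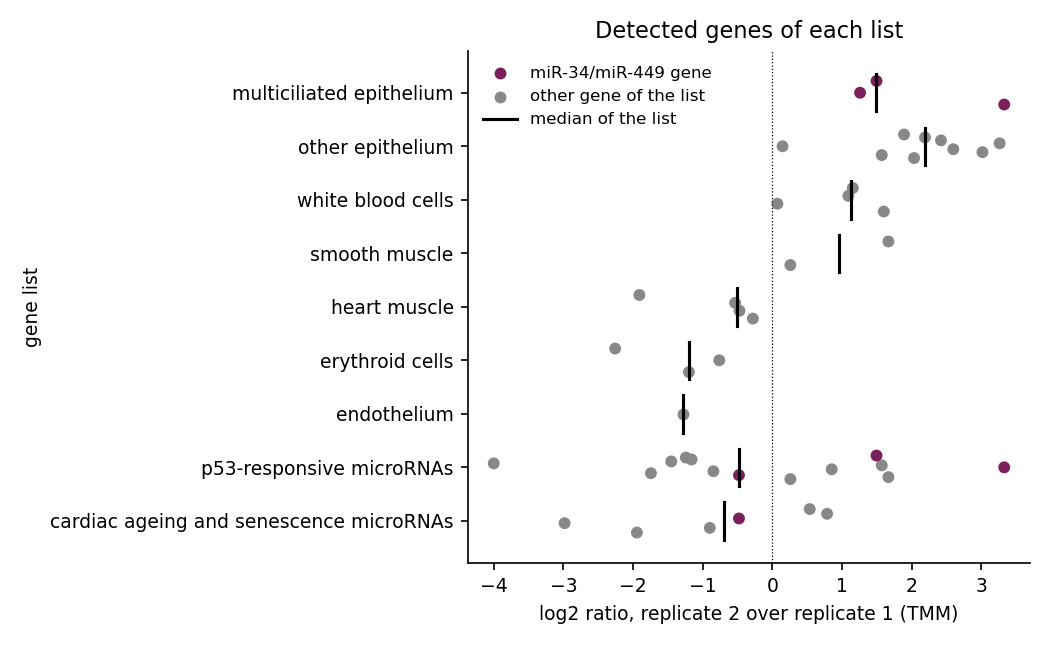
Log2 ratio of replicate 2 over replicate 1 on TMM-scaled counts for the detected genes of each list (points, family genes in purple) with the list's median (black bar). Every detected multiciliated gene and every detected gene of the other epithelium list lies above 0, Mir200b at 0.15, while p53-responsive genes spread from -4.00 (Mir215) to 3.33 (Mir34c).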

How the data were processed

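MicroRNA-seq of aged heart was used, with 2 libraries in 1 group. The deposited tables hold raw counts for each microRNA gene, in 3 columns (either strand, sense, antisense) without headers, so the meaning of the columns comes from the values. Assembly mm10 and annotation GENCODE M21 are given by the deposited readme texts, with the aligner and the counter not given in the sources used here. The 4 rows that are no genes (unmapped 16.2% and 14.9%, multimapping 43.2% and 43.9%, featureless 5.75% and 5.07%, ambiguous 0% and 0% of reads in replicates 2 and 1) were left out of totals and tests.

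Sense counts were used. Gene identifiers (2202) were all matched to GENCODE M21. CPM used library totals. Genes with 10 counts or more in each library (316) were compared by two-sided exact binomial test. Its expected share was set by effective library sizes after TMM (edgeR 4.0.16), with Benjamini-Hochberg adjustment at 0.05 over all 316 genes. The step was also run on simulated Poisson counts, which hold only counting error and set folds. That run cannot show how often the test calls genes in real libraries. DESeq2 1.42.0 gave other size factors. R 4.3.3, Python 3.11.15, scipy 1.17.1, numpy 2.4.6, pandas 2.3.3 and matplotlib 3.10.9 were used. With 1 group no model between groups could be fitted, and p-values measure only the difference between these libraries. Sequences were taken from RefSeq (5 of 6 genes matched).

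The members, lists and tests were chosen with earlier results of these data known. Named genes are the members, up to 4 genes per list that reach 10 CPM, and the nearest genes by level and by ratio. Chosen after their values were seen were Mir26a-1, Mir200b, Mir205, Mir96, Mir215, Mir18, Mir1a-1, Mir133a-1 and Mir133a-2. Alternatives were reads on either strand, other scalings and minimum counts, thinning of the deeper library, other denominators and each library left out.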

Additional observations from a re-analysis of the deposited data

How the results depend on the processing

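The 4 tested family genes kept their direction and their call in every setting in which they could be tested: DESeq2 size factors, library totals, minimum counts of 1 or 100, reads on either strand and the deeper library thinned. At a minimum of 100 counts in each library, Mir34b and Mir449a were not tested. The log2 ratio stayed between 3.27 and 3.45 for Mir34c, 1.398 and 1.62 for Mir34b, 1.20 and 1.38 for Mir449a, and -0.53 and -0.36 for Mir34a. Genes called over the whole table numbered 132 to 201, and their split moved with the scaling, from 105 higher in replicate 2 and 86 higher in replicate 1 to 128 and 70 with library totals and 93 and 94 with DESeq2 size factors. The median log2 ratio of detected genes was 0.18 with library totals, against 0.05 with TMM.

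With reads on either strand, Mir34a averaged 3927 CPM and the family 0.422% of gene counts, since the same counts of Mir34a were divided by smaller totals (2824159 in replicate 2 and 2458090 in replicate 1). That column is smaller than the sense column because it sets aside reads as ambiguous, 852067 in replicate 2 and 925685 in replicate 1, against 0 in the sense column. As a share of all reads, the family took 0.112%. Mean levels and ratios of the cluster genes rest on the library chosen: without replicate 1 Mir34c stood at 323 CPM and without replicate 2 at 29.6 CPM, and the ratio of Mir34a to Mir34c was 7.93 and 111. Mir34b moved likewise (13.6 and 4.43 CPM), as did Mir449a (54.7 and 20.98 CPM), Mir34c over Mir34b (23.8 and 6.67) and Mir34a over the Mir449 genes (46.9 and 156). Library ratios cannot be had from 1 library. Depth limits Mir34b, at 15 counts in replicate 1, and both genes at 0. No paired analysis was possible because there is 1 group.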
